A study of Mus musculus with 14 samples.

Results

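These results concern the m6A peaks that the deposited files annotate to exons of non-coding RNA in mouse brain. N6-methyladenosine (m6A) is a methyl mark on adenosines inside RNA, and it was mapped by precipitating RNA fragments with an antibody against m6A (IP) and comparing them with the same RNA before precipitation (input). Members were all peaks with the label ncRNA_exonic in the authors' 3 group peak lists, together with the rows carrying that label in their 3 differential tables. The lists held 4247 such peaks of 48251 in sham brain (8.80%), 4472 of 54754 in brain with intracerebral haemorrhage, ICH (8.17%), and 4216 of 50105 in acupuncture-treated brain (8.41%). They fell in 3644 of the 18714 genes with any peak. The samples were brain tissue of mice that had a sham operation (3 samples), an ICH made with autologous blood (2 samples), or an ICH followed by acupuncture at the GV20 point on 7 consecutive days (2 samples). Each sample gave 1 IP and 1 input library of poly(A) RNA, 14 libraries in all. No source used here says that the replicates were separate animals, so p-values on the input RNA measure only the spread between these samples, which may be technical. The labels read here do not state strain or age.

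The methyl group of m6A is written co-transcriptionally by the Mettl3-Mettl14 complex, removed by demethylases and read by YTH-domain proteins, which act on RNA decay, splicing and export. Long non-coding RNAs (lncRNAs) are transcripts without a known protein product. Some, such as Malat1 and Neat1, stay in the nucleus and organise nuclear bodies, while others silence imprinted loci or serve mainly as precursors of microRNAs and small nucleolar RNAs (snoRNAs). Several of them, Malat1 among them, are classical carriers of m6A.

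No peak region could be read from a genome here, so sequences come from RefSeq tables (GRCm38.p6) and are given for peaks that sit on a known hairpin or on a gene's first bases. Of 3637 member symbols, 1083 had a promoter window (29.8%). The following microRNA hairpins lay wholly inside a peak of at most 1000 bp in all 3 lists, and for Mir6363, Mir6340 and Mir6244 the peak had exactly the hairpin's ends. Capitals mark GGAC, the core of the usual m6A context, searched on the transcript's strand only.
Mir6363, chr16:50727132-50727245, plus strand: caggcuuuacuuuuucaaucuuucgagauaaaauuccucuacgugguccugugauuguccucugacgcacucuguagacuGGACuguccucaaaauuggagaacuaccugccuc
Mir6340, chr2:173701030-173701148, minus strand: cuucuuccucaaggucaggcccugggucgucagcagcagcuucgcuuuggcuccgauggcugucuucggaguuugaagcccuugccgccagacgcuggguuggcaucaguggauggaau
Mir29c, chr1:195037547-195037634, plus strand: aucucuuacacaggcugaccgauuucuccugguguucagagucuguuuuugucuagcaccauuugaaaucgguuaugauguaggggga
Mirlet7b, chr15:85707319-85707403, plus strand: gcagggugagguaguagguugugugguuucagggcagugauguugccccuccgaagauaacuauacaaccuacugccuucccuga
The Mir6363 peak had a log2 IP over input of 3.67 in sham, 6.03 in ICH and 3.17 in acupuncture. At Mir6340 the values were 3.90, 3.78 and 3.95, at Mir29c 1.23, 1.77 and 1.33, and at Mirlet7b 1.09, 1.67 and 1.66. The Mir6363 hairpin lies opposite the span of an enriched site of the lncRNA Dubr (chr16:50726297-50732044, minus strand). That site had a log2 of 3.12 in sham and 2.51 in acupuncture, so the assignment of the Mir6363 peak rests on strand. The Mirlet7b hairpin shares its locus with Mirlet7c-2, a name given to a peak in ICH alone (1.37). In acupuncture an overlapping peak was named Lncppara (0.82). The mature products of Mirlet7b and Mirlet7c-2 carry the same seed, shown in capitals.
let-7b-5p: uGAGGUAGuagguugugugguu
let-7c-5p: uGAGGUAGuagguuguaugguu
Across hairpins, GGAC occurred in 4 of the 18 that lay inside a peak of at most 1000 bp (22.2%) and in 246 of all 1005 hairpins of the table (24.5%). These shares were close to each other, and a match is a description of letters and not a mapped methylation site.

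At gene starts the first 50 transcribed bases lay inside a peak of the same gene for 272 windows of 235 genes, and 55 of them held GGAC (20.2%), beside 6194 of all 32851 windows (18.9%). The 3 below are shown because differences between groups in their genes are described further on. For Zfas1 the difference described lies at chr2:167065484-167065858 and not over the printed bases.
Bc1, chr7:144914470-144914519, plus strand: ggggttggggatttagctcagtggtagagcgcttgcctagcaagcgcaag
Firre, chrX:50635272-50635321, minus strand: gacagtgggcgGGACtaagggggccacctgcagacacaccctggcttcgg
Zfas1, chr2:167062934-167062983, plus strand: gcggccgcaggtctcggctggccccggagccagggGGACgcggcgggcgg
Bc1 had a peak over its start in all 3 lists, whereas the Firre and Zfas1 starts lay inside a listed peak in acupuncture only (log2 IP over input 0.77 and 1.01); the listing itself was not tested between groups. A whole peak could be read for Gm15927, a gene with a 100 bp peak in sham (log2 2.03) that holds 3 GGAC.
Gm15927, chr7:3644354-3644453, minus strand: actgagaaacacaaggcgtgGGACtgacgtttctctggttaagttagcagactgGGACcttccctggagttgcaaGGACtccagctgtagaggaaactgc

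By RefSeq biotype, 1336 of the 3644 genes were lncRNAs, 750 pseudogenes, 47 microRNAs and 23 snoRNAs. A further 1420 had no RefSeq entry and 50 were protein-coding genes in RefSeq, among them Ifi30, a lysosomal thiol reductase. LncRNA genes recurred in all 3 lists in 66.0% of cases, pseudogenes in 43.9% and microRNA genes in 38.3%. In total 2125 genes had a peak in all 3 lists, 738 in 2 and 781 in 1. A protein-coding gene on the same strand overlapped only 11 sham, 13 ICH and 14 acupuncture peaks, but 38.9%, 40.4% and 40.1% of peaks lay opposite a coding gene, where the assignment rests on strand. Most genes were weakly expressed: of 3330 with an input FPKM (fragments per kilobase of transcript, scaled to library size), 953 reached a mean of 1 and 768 were under 0.1.

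Kcnq1ot1, the paternally expressed antisense RNA that silences the Kcnq1 imprinted domain, held the most peaks over the 3 lists, 41 (16 in sham, 10 in ICH, 15 in acupuncture). The imprinted lncRNAs Rian and Meg3 followed closely with 38 (13, 13 and 12) and 31 (10, 12 and 9). Between and after them came Gm37494 with 32, Mir100hg with 30, 9330162G02Rik with 28, Cdr1os and Six3os1 with 24 each, Snhg14 with 23 and Miat with 22. Mir100hg is the host transcript of a microRNA cluster, Cdr1os is transcribed opposite the Cdr1 locus, and Snhg14 is the long host of the Prader-Willi snoRNAs. Kcnq1ot1 reached this number at an input level of only 0.266 to 0.595 FPKM, against 180 to 239 FPKM for Meg3.

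Small RNA genes named in the lists often lay within the span of a longer gene. Of the 47 microRNA genes with a peak, 37 lay within a longer gene on the same strand, and so did 21 of the 23 snoRNA genes. Only gene spans were compared, so whether such a peak sat on an exon of the longer gene was not checked. The same site could change name between lists: the Zfas1 site at the transcript's 3′ part (chr2:167065534-167065858, log2 2.05 in sham; 2.03 in acupuncture) overlapped a peak named Snord12 in ICH (2.52). The Snhg1 site at chr19:8726075-8726443 (1.61 in sham) overlapped peaks named Snord22 in ICH (2.57) and acupuncture (1.99). Mir425, Mir135a-1, Mir5103 and Snord87 changed names with their hosts in the same way. Over all members this touched 0.784% to 1.03% of the overlapping peaks in the 6 list pairs, so the count of lists in which a small RNA appears depends in part on the name given to the peak.

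**Figure D1:**
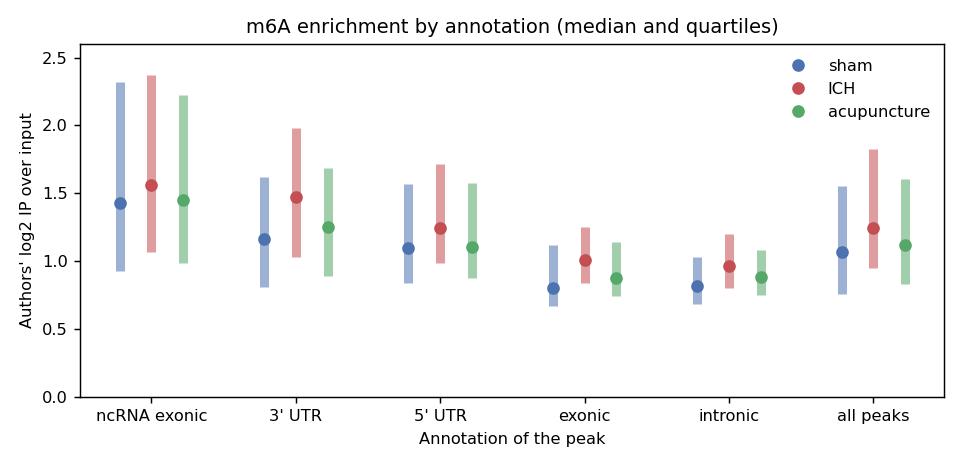
Authors' log2 IP over input (y axis) by annotation of the peak (x axis); points are medians over peaks and bars the quartiles, for sham, ICH and acupuncture. The ncRNA exonic medians lie at 1.43, 1.56 and 1.45, above those of 3′ UTR peaks in every list, and their bars reach highest.

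Peaks in exons of non-coding RNA were more strongly enriched than the average peak. Their median log2 IP over input, a value the authors computed once per whole group and which therefore has no replicate error, was 1.43 in sham, 1.56 in ICH and 1.45 in acupuncture, beside 1.07, 1.24 and 1.12 over all peaks. A log2 of at least 3 was reached by 13.8%, 13.6% and 11.9% of members and by 4.91%, 4.96% and 4.50% of all peaks. A log2 of at least 3 was more frequent on weakly expressed genes. In sham, 18.0% of peaks on genes under 0.1 FPKM and 17.6% on genes at 0.1 to 1 FPKM reached it. The shares were 6.93% at 1 to 10 FPKM, where the highest sham value lay, and 3.98% from 10 FPKM. Across sham peaks with an FPKM the Spearman correlation of enrichment with input level was -0.26 (4016 peaks, which share libraries and genes). The input is the denominator of the enrichment, and its part in this relation was not tested.

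The single highest sham value belonged to Gm21596, a pseudogene (chr2:113919972-113920196, log2 21.20), far above the next, the transcribed pseudogene 5830417I10Rik at 7.94, which also reached 7.43 in ICH. The ICH list was led by Gm12100 (8.33) and Gm12101 (7.69), which overlap on opposite strands near chr11:30754565. The acupuncture list was led by the lncRNA AA387200 (7.35), the pseudogene Gm5940 (7.33) and the snoRNA Gm25857 (7.32). Haglr, the antisense transcript of the HoxD cluster, reached 7.07 in acupuncture and 4.02 in sham. Gm16093, a gene without a RefSeq entry, was among the highest in 2 lists and lay close in the other (6.17 in sham, 7.07 in ICH, 6.80 in acupuncture). Several of these values sat on almost no input RNA, so their ratios are uncertain. Gm12100 and Gm12101 stood at 0 FPKM in both ICH inputs, and Gm16093 at 0 in every ICH and acupuncture input. In the acupuncture inputs AA387200 was at 0.0315 and 0 FPKM and Haglr at 0.00472 and 0, but Gm5940 was at 2.32 and 4.16. Gm21596 was at 6.81 to 8.15 FPKM in sham. Values on pseudogenes are also uncertain, because reads can be shared with near-identical copies.

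Most peaks recurred between lists. At an overlap of at least 1 bp on the same strand, 75.9% of sham peaks had a counterpart in ICH and 72.2% in acupuncture. Over all sham peaks these shares were 80.2% and 76.6%. Of ICH peaks, 72.1% overlapped one in sham and 73.1% one in acupuncture, and of acupuncture peaks 73.6% and 78.5% overlapped one in sham and ICH. Peaks present in all 3 lists made up 64.0%, 61.1% and 65.5% of the sham, ICH and acupuncture members, beside 70.4%, 62.9% and 68.8% of all peaks. They had a median log2 of 1.62, 1.84 and 1.66, and those in a single list only 1.09, 1.09 and 1.14. When both peaks had to be covered to 50%, the 6 shares fell to between 51.8% and 57.2%, beside 46.7% to 57.5% over all peaks.

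Among nuclear and architectural lncRNAs, 7 of the 13 listed genes carried a peak, and all 7 did so in every list: Kcnq1ot1, Miat, Firre, Malat1, Ftx, Jpx and Neat1. Neat1, the scaffold of paraspeckles, had 1 peak at its 5′ end (chr19:5842108-5845478) with a log2 of 2.15 in sham, 2.87 in ICH and 2.46 in acupuncture. Malat1 had 4, 6 and 5 peaks, the highest at 1.54, 1.90 and 1.68. No peak carried the names of Xist and Tsix, the RNAs of X inactivation, and Xist stood at 0.0109 to 0.0365 FPKM. Tug1 peaks carried UTR labels in place of the ncRNA label and are not members.

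Of 11 names of imprinted non-coding RNAs 8 had a peak, 7 of them in all lists. Nespas and Ipw had neither a peak of any label nor an FPKM value under those names. The strongest Meg3 site lay at its 3′ end (chr12:109570640-109571726 in sham), with 3.67 in sham, 4.14 in ICH and 3.74 in acupuncture. The highest Kcnq1ot1 value, 5.27 in sham, 4.73 in ICH and 5.37 in acupuncture, lay inside the transcript (chr7:143257958-143259532 in sham). Airn, which silences Igf2r, had 2.83 and 3.16 in sham and ICH and at most 1.38 in acupuncture. No peak of any label carried the name Peg13, although it was expressed at 45.4 to 63.1 FPKM. Other genes of these lists at such a level, such as Oip5os1 at 40.7 to 55.3 FPKM, carried several. Peaks at the position of Peg13 under another gene name were not searched for.

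By the gene name of the peak, snoRNA hosts had one in 13 of 20 genes (9 in all lists) and microRNA hosts in 11 of 17 (8). Brain lncRNAs had one in 14 of 23 (12), lncRNAs of injury and growth in 11 of 20 (4), and small structured RNAs in 3 of 16 (2). In these lists some names had neither a peak of any label nor an FPKM value, among them Nespas, Ipw, Norad, Cyrano, Pnky, Mirt2 and Snhg7. Such a name may be missing from the annotation or replaced by another, so it does not show an RNA without m6A. Snhg8, Snhg9 and Snhg10 count as without a peak. Snora24, Snora78 and Scarna13, which lie inside them on the same strand, had peaks under their own names. Bc1, a dendritic RNA of neurons that represses translation, was peaked over its whole length (chr7:144914470-144914637) with a log2 of 0.85 in sham, 1.79 in ICH and 1.19 in acupuncture. Mirt1, H19, Mir142hg and Morrbid had peaks in ICH and acupuncture and none listed in sham. Their sham input was 0.0864 to 0.139 FPKM for Mirt1, 0.0720 to 0.204 for H19, 0.111 to 0.898 for Mir142hg and 0.00608 to 0.0150 for Morrbid. An entry missing from a list does not show that enrichment was absent: the authors' deposited table of acupuncture against sham gives a Mirt1 site (chr19:53453356-53453655) a log2 of 4.83 in sham and 2.19 in acupuncture (adjusted p = 0.0732). The peaks of 6330403K07Rik were labelled UTR3, and those of Snhg11 UTR3 or intronic.

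In ICH against sham, most members with a changed enrichment were higher in ICH. The authors' deposited table listed 1457 members, of which 1165 passed the authors' adjusted p of 0.05, 825 higher and 340 lower in ICH. Among all listed peaks with a p-value, 69.9% were called higher and 18.0% lower; higher calls made up 70.8% of the called members and 79.5% of all called peaks. The table holds only peaks with the authors' p under 0.05 or with no p, so these are shares of a selected list. The median size of a called difference was 0.95 for members and 0.67 for all peaks.

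Malat1, Miat, Neat1, Meg3 and Bc1 were higher in ICH at nearly every called site in the authors' deposited table. Malat1 rose at 5 of 5 listed sites, by 0.34 to 0.76 on the log2 scale, for example from 0.80 to 1.56 at chr19:5795690-5795939. Miat rose at 6 of 6, by 0.53 to 0.95, and Neat1 at its single site from 2.16 to 2.82. Meg3 rose at 8 of 9 called sites, from 3.51 to 4.23 at the 3′ site, and fell at chr12:109549336-109549460 from 0.995 to 0.659. Bc1 rose from 0.80 to 1.72. Sites of 1 gene share its RNA and are not independent.

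By group, the authors' deposited table called 11 sites of snoRNA hosts higher in ICH and 1 lower, 16 and 2 of brain lncRNAs, 13 and 4 of nuclear lncRNAs, 12 and 4 of imprinted RNAs, 6 and 0 of injury lncRNAs, 4 and 5 of microRNA hosts, and 1 and 0 of small structured RNAs. These groups are not independent, because some genes count in more than 1. Miat is in the nuclear and brain groups and Kcnq1ot1 in the nuclear and imprinted groups. Snhg14, Mirg, H19 and Bc1 are shared between groups too. Snhg20 rose at both listed sites (0.45 to 1.66 and 2.08 to 3.31), Zfas1 from 1.99 to 2.78 and Snhg1 from 1.54 to 2.68. Pantr2, a neural lncRNA near Pou3f3, rose from 0.13 to 2.42, and Sox2ot, which overlaps Sox2, from 0.94 to 2.05. H19, an imprinted RNA and precursor of miR-675, rose from 0.71 to 2.29. Sites named for snoRNAs were higher in 11 of 11 called cases.

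A smaller set fell in ICH in the authors' deposited table. Kcnq1ot1 fell at both listed sites, from 3.00 to 1.28 at chr7:143218608-143220357 and from 1.59 to -0.12 at chr7:143228758-143229007. Mir100hg fell from 2.09 to 0.48 at chr9:41579948-41581161, Mir124a-1hg, a host of the neuronal miR-124, at 2 sites by 0.24 and 0.51, and Ftx, a regulator of the X-inactivation centre, from 2.14 to 1.84. Of 126 genes with at least 2 called sites, 77 were higher at all, 15 lower at all and 34 mixed, among the latter Cdr1os, Firre, Meg3 and Snhg5. Snhg5 fell from 1.49 to -0.87 at one site and rose by 1.01 and 0.97 at the other two.

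The largest differences in the authors' deposited table of ICH against sham included pseudogenes, by RefSeq or by symbol, and weakly expressed genes. Zxda went from -2.40 to 3.10, Gm5641 from -0.88 to 4.55 and Pabpc1l2a-ps from 1.83 to 6.75, while Gm47283 on chromosome Y went from 4.43 to -0.15 and Gm14317 from 3.70 to -0.53. Gm5641 was at 10.6, 15.9 and 14.01 FPKM in the 3 sham inputs and at 14.3 and 1.26 in the 2 ICH inputs. The second ICH library was thus far below all others at this gene. Gm5641 also went from -0.89 in sham to 4.36 in acupuncture in the authors' table of those groups (chr3:54481938-54482037). The acupuncture inputs stood at 8.88 and 11.4 FPKM. The part of the input level in these differences was not tested.

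**Figure D2:**
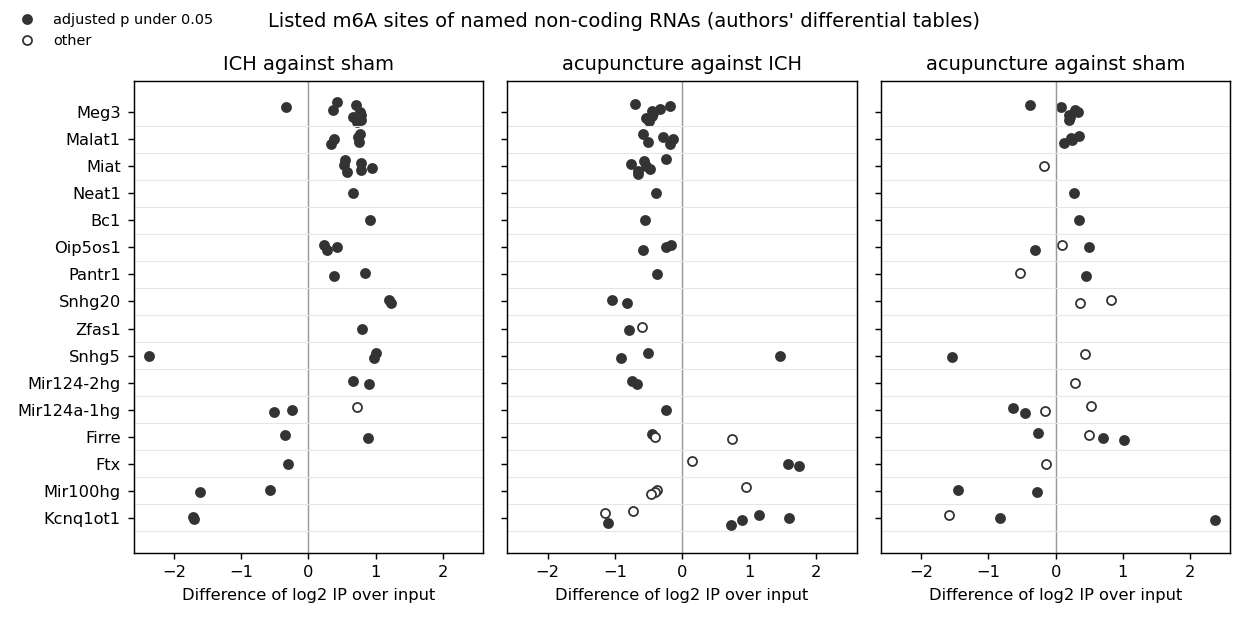
Difference of log2 IP over input (x axis, first group minus second) at each ncRNA exonic site that the authors' differential tables list for named genes (y axis); filled points have the authors' adjusted p under 0.05 and open points do not. Malat1, Miat, Neat1 and Bc1 lie right of 0 in ICH against sham and left of 0 in acupuncture against ICH, and Kcnq1ot1 and Mir100hg lie left in ICH against sham.

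In acupuncture against ICH, most called members were lower in acupuncture. The authors' deposited table listed 1425 members and called 919, 244 higher and 675 lower, beside 11.6% called higher and 62.4% lower over all listed peaks. Higher calls were 26.6% of the called members and 15.6% of all called peaks. This comparison shares the ICH samples with the one above, so opposite directions in both follow in part from the shared values, and the sites are given side by side only.

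Malat1 was lower in acupuncture at 5 of 5 sites, Miat at 7 of 7 and Meg3 at 8 of 8 in the authors' deposited table. At the Meg3 3′ site the log2 went from 4.20 in ICH to 3.71 in acupuncture, at Neat1 from 2.82 to 2.44 and at Bc1 from 1.74 to 1.19. Called sites of brain lncRNAs were lower in 17 of 17 cases, of microRNA hosts in 7 of 7, of injury lncRNAs in 5 of 5, of small structured RNAs in 1 of 1, and of snoRNA hosts in 14 of 15. Nuclear lncRNAs were lower at 15 and higher at 6 sites, and imprinted RNAs lower at 14 and higher at 4. A few genes gave many of these sites. The 7 Miat sites count in both the nuclear and the brain group. Meg3 gave 8 of the 14 lower imprinted sites, and the 4 higher imprinted sites, all of Kcnq1ot1, count as nuclear too.

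The 6 nuclear lncRNA sites higher in acupuncture were those of Kcnq1ot1 and Ftx. In the authors' deposited table Kcnq1ot1 was higher at 4 called sites and lower at 1, for example 1.30 in ICH and 2.45 in acupuncture at chr7:143218583-143220257. Ftx was higher at 2 sites, from -0.51 to 1.08 and from -0.50 to 1.25. Mir142hg, the host of the haematopoietic miR-142, was lower at its 3′ part (2.82 to 0.97), and Snhg6 went from 2.08 to 1.28. The extremes again included pseudogenes, Pabpc1l2a-ps by its symbol only, as it has no RefSeq entry. They also included the lncRNA Gm43305, which went from -0.02 to 5.57. Gm5537 went from 0.31 to 7.08, Pabpc1l2a-ps from 6.76 to -5.22 and Gm2606 from 5.73 to -5.76. Input of Gm2606 was 95.1 and 51.9 FPKM in ICH and 229 and 325 in acupuncture. That of Pabpc1l2a-ps was 11.4 and 6.95, then 8.76 and 12.3, and that of Gm5537 3.62 and 4.99, then 3.26 and 2.61. The part of the input in these differences was not tested.

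In acupuncture against sham the calls were nearly even. The authors' deposited table listed 1255 members and called 714, 368 higher and 346 lower, with 37.7% called higher and 26.2% lower over all listed peaks. Higher calls were 51.5% of the called members and 59.0% of all called peaks. LncRNAs split into 135 higher and 135 lower, pseudogenes into 63 and 88.

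Called sites of Malat1, Neat1, Bc1 and Snhg1 were higher than in sham, and other abundant lncRNAs were mixed. In the authors' deposited table Malat1 was higher at 4 of 4 sites by 0.13 to 0.34, Neat1 went from 2.14 to 2.41, Bc1 from 0.81 to 1.15 and Snhg1 from 1.57 to 2.06. Meg3 was higher at 6 sites and lower at 1. Oip5os1 was higher at one called site (0.25 to 0.74) and lower at another (a difference of -0.31). Miat had a single listed site, at 0.75 in sham and 0.58 in acupuncture, which did not pass (adjusted p = 0.0594). Rian rose at chr12:109657874-109658273 from 0.71 to 1.25. Firre, an X-linked RNA that tethers chromatin at the nucleolus, rose over its start (chrX:50635150-50635321, the bases printed above) from 0.19 to 1.21. At that site it stood at 0.49 in ICH against 1.24 in acupuncture in the authors' table of those groups, with an adjusted p of 0.0578.

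Called sites of imprinted RNAs were higher than sham in 11 cases and lower in 4, of nuclear lncRNAs in 8 and 2, of snoRNA hosts in 4 and 4, of brain lncRNAs in 4 and 3, of injury lncRNAs in 1 and 2, of microRNA hosts in 1 and 7, and of small structured RNAs in 1 and 0, by the authors' deposited table. As above, some genes count in more than 1 group. Mir100hg was lower at chr9:41579973-41581111 (2.16 in sham, 0.70 in acupuncture), whereas the authors' table of acupuncture against ICH gave the largely overlapping chr9:41579998-41580986 as 1.29 in ICH and 2.24 in acupuncture (adjusted p = 0.0602). Kcnq1ot1 was lower at chr7:143217458-143220332 (3.00 to 2.17) and higher at chr7:143257458-143257582 (1.24 to 3.61). The largest differences were at Zxda (up to 7.88), Gm18562 (6.83) and, downwards, Gm30794 (-4.90) and 5830417I10Rik (-4.21).

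The direction of the called differences moved with the level of the gene in the input libraries. For members on genes of at least 1 FPKM, 239 of 257 called peaks (93.0%) were higher in ICH where ICH replicate 2 had less input RNA than every sham library. Where it had more than every sham library the number was 61 of 138 (44.2%). For ICH replicate 1 the shares were 80.9% and 68.2%. Over all peaks they were 93.0% and 65.4% for replicate 2, and 82.2% and 79.6% for replicate 1. In acupuncture against ICH, 9.63% of called members were higher in acupuncture where ICH replicate 2 lay below both acupuncture libraries and 41.7% where it lay above both. For ICH replicate 1 these shares were 13.0% and 47.6%. Over all peaks they were 5.57% and 24.9% for replicate 2, and 8.80% and 19.3% for replicate 1. In acupuncture against sham the shares ran from 66.7% to 44.2% for acupuncture replicate 1 and from 69.3% to 43.3% for replicate 2. Over all peaks they ran from 59.6% to 61.4% and from 62.0% to 58.3%.

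**Figure D3:**
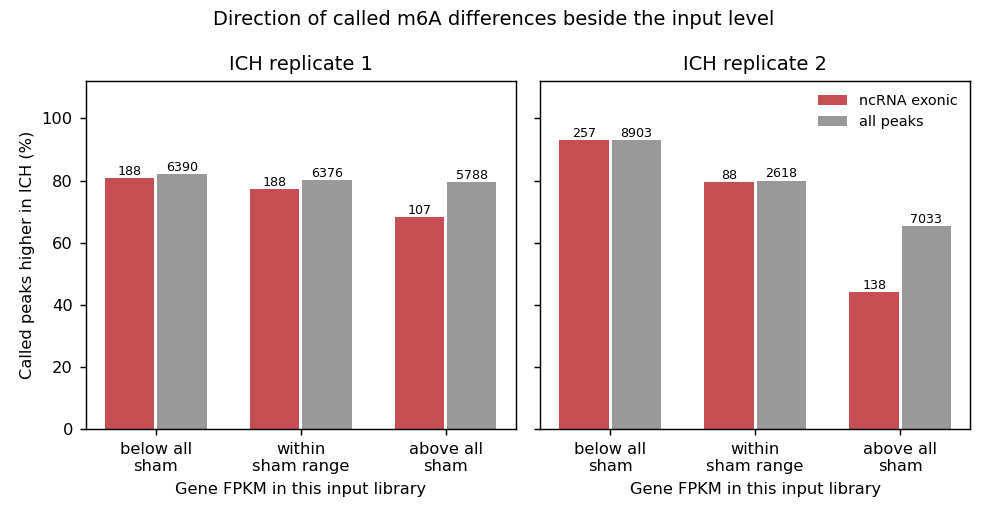
Share of called peaks that were higher in ICH than in sham (y axis, %) by where the gene's FPKM in ICH replicate 1 or 2 lay against the 3 sham inputs (x axis), for ncRNA exonic peaks and all peaks; numbers over bars are called peaks. The share for ncRNA exonic peaks goes from 93.0% to 44.2% in replicate 2 and from 80.9% to 68.2% in replicate 1.

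Several of the lncRNAs named above differed between the ICH inputs, and others did not. Bc1 was at 153, 186 and 169 FPKM in sham, 161 and 43.3 in ICH, and 240 and 158 in acupuncture. Malat1 was at 145, 139 and 134 in sham, 150 and 98.6 in ICH, and 163 and 162 in acupuncture, and Miat at 47.4, 51.8 and 43.1, then 50.6 and 25.9, then 62.4 and 43.8. In the opposite sense Kcnq1ot1 was at 0.299, 0.266 and 0.312 in sham, 0.274 and 0.595 in ICH, and 0.271 and 0.266 in acupuncture. Mir100hg reached 3.99 FPKM in ICH replicate 2 against 1.79 to 2.53 elsewhere, and Cdr1os 10.8 against 3.87 to 5.07. In each of these 6 genes the second ICH library stood outside the range of the other 6 libraries. Meg3, whose sites were also mostly higher in ICH, was at 239, 208 and 223 FPKM in sham and at 180 and 186 in ICH, so both ICH inputs lay below sham. The enrichment is a ratio to the input, the lists do not give it per sample, and the part of this library in the m6A differences was not tested.

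Input RNA of the host genes changed in few cases. In limma on log2(FPKM + 1) over 13666 genes, 953 member genes were tested, and 18 were called in ICH against sham at an adjusted p under 0.05, 13 higher (4.95% of all genes tested were called higher) and 5 lower (0.724%). In acupuncture against ICH 2 were higher (0.0366%) and 0 lower (0% of all genes), and in acupuncture against sham 31 were higher (8.47%) and 16 lower (3.22%). At an unadjusted p under 0.05 limma counted 147, 170 and 156 member genes. The median log2 fold change of the members was -0.05, 0.09 and 0.07, beside -0.01, 0.05 and 0.04 over all genes. The counts changed most with the ICH libraries. Without ICH replicate 1, which leaves replicate 2 as the only ICH library and assumes that it varies like the other groups, limma called 268, 281 and 131 member genes in the 3 comparisons, and without ICH replicate 2 it called 22, 3 and 130. Leaving out sham replicate 2 or 3 gave 11 and 9 calls in ICH against sham. In acupuncture against sham, sham replicate 1 or 3 left out gave 26 each, and acupuncture replicate 1 or 2 left out gave 20 and 29.

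The RNAs higher in ICH included AU020206, an lncRNA, at 0.764 ± 0.0907 FPKM in sham (SD, n = 3), 4.70 ± 0.481 in ICH (n = 2) and 4.85 ± 0.0770 in acupuncture (n = 2). Relative to sham, ICH was higher by 1.69 on the log2 scale (SE 0.10; limma, adjusted p = 0.000368). AI506816, another lncRNA, went from 1.15 ± 0.117 to 4.88 ± 0.874 and 5.26 ± 0.0747 FPKM, and was called in ICH against sham (1.44, limma adjusted p = 0.000956). Ifi30, which carries the ncRNA label here but is protein-coding in RefSeq, went from 1.57 ± 0.327 to 35.1 ± 3.34 and 45.2 ± 4.73 FPKM. For these genes all haemorrhage libraries lay above all sham libraries.

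Among the genes lower in ICH, A330023F24Rik, the host of miR-29c, was at 7.16 ± 0.116 FPKM in sham, 4.59 ± 0.621 in ICH and 9.23 ± 1.14 in acupuncture. The log2 difference of ICH from sham, -0.55 (SE 0.11; limma, adjusted p = 0.0360), was no longer called without any 1 of the sham libraries (limma adjusted p of 0.145, 0.111 and 0.137 without replicate 1, 2 and 3), without a filter on low values (0.0696), or in a fit of the 2 groups alone (0.0535). The lncRNA 4833415N18Rik was at 2.49 ± 0.193, 1.20 ± 0.161 and 1.64 ± 0.208 FPKM and likewise lower in ICH (-0.66), a call also lost without any 1 of the sham libraries (limma adjusted p of 0.0938, 0.0783 and 0.0588). The pseudogene Rps12-ps4 had the largest drop, from 18.9 ± 4.66 to 1.63 ± 0.649, and stood at 47.6 ± 3.83 in acupuncture. It shares sequence with other copies of a ribosomal protein gene, and its counts are uncertain. Rps12-ps4 and the pseudogene Gm14150 (0.551 ± 0.404 in ICH, 7.99 ± 1.19 FPKM in acupuncture) were the pair called in acupuncture against ICH. The Rps12-ps4 call was kept without any 1 library. That of Gm14150 was lost without sham replicate 1 or 3 (limma adjusted p of 0.0930 and 0.0860) and without acupuncture replicate 1 or 2 (0.0653 and 0.0861).

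**Figure D4:**
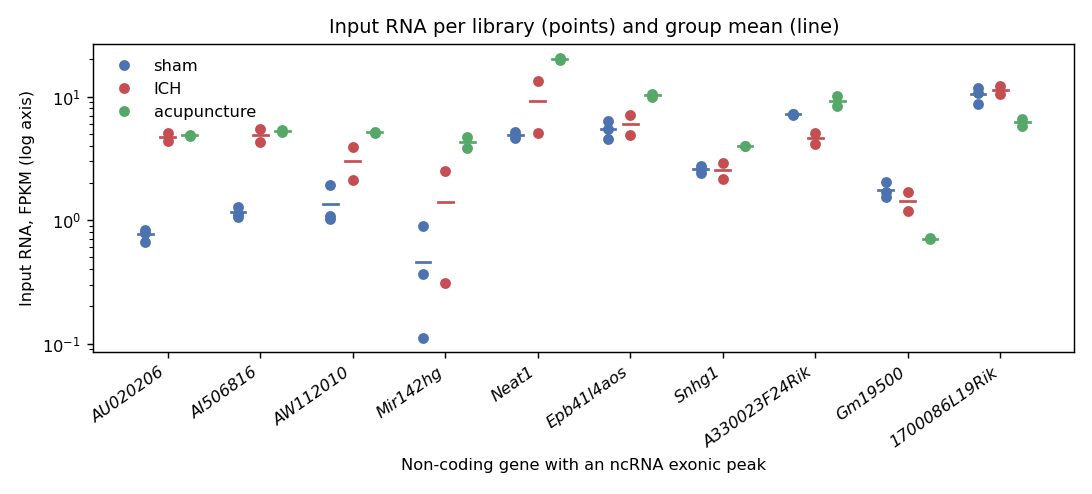
Input RNA in FPKM (y axis, log scale) of 10 genes with ncRNA exonic peaks (x axis); points are the 3 sham, 2 ICH and 2 acupuncture libraries and lines their means. Neat1 and Mir142hg are highest in both acupuncture libraries and their 2 ICH libraries lie far apart, whereas AU020206 and AI506816 are close together in all haemorrhage libraries.

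In acupuncture against sham Neat1 was at 5.13, 4.64 and 4.89 FPKM in sham, 13.4 and 5.07 in ICH, and 19.7 and 20.5 in acupuncture. The groups sham and acupuncture did not overlap, and acupuncture was higher by 1.84 on the log2 scale (SE 0.32; limma, adjusted p = 0.0120). Without acupuncture replicate 1 or 2 the limma adjusted p was 0.0799 or 0.0863. Mir142hg went from 0.459 ± 0.401 in sham to 4.24 ± 0.617 FPKM in acupuncture (1.88, limma adjusted p = 0.0297), a call lost without sham replicate 1 or 2 (0.0951, 0.0889) or acupuncture replicate 1 or 2 (0.175, 0.126), and at a pseudocount of 0.1 (0.0636) or without the filter (0.0888). Among snoRNA hosts Snhg1 and Epb41l4aos were called higher, with 11 of the list tested, and among nuclear lncRNAs Neat1 alone of 5. Of genes lower in acupuncture than in sham, 1700086L19Rik was at 10.4 ± 1.57 and 6.18 ± 0.554 FPKM (-0.66) and Gm19500 at 1.75 ± 0.256 and 0.706 ± 0.00765 (-0.69). Without acupuncture replicate 1 or 2 the limma adjusted p was 0.179 or 0.0989 for 1700086L19Rik and 0.116 or 0.109 for Gm19500. Without sham replicate 1 or 2 it was 0.104 or 0.0796 for 1700086L19Rik, and without sham replicate 1 or 3 it was 0.0879 or 0.0766 for Gm19500.

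Few genes had both a called RNA change and a called m6A difference, and the signs varied. In ICH against sham A330023F24Rik fell in RNA by 0.55 and its sites rose by 0.57 and 1.13 in the authors' deposited table, whereas AU020206 rose in RNA by 1.69 and at its site by 0.83. Ifi30 rose in RNA by 3.82 and fell at its site by 0.72. In acupuncture against sham Neat1 rose in both, by 1.84 in RNA and 0.28 at its site, as did Snhg1, by 0.47 and 0.49. Gm9320, a pseudogene, rose in RNA by 1.05 and went from 3.25 to -0.63 at its site.

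Markers of several cell types differed between the groups, and others overlapped. Summed over 10 microglial genes, all found, the input level was 150 to 180 FPKM in sham, 497 to 637 in ICH and 686 to 698 in acupuncture, and over 10 reactive astrocyte genes 37.9 to 44.4, 631 to 677 and 773 to 966. A set of 8 striatal neuron genes summed to 445 to 479, 195 to 241 and 147 to 193 FPKM. A set of 8 choroid plexus genes summed to 457 to 490 in sham, 338 to 357 in ICH, and 344 and 2.30 in the 2 acupuncture libraries. Oligodendrocyte genes (8) summed to 1052 to 1340, 825 to 867.6 and 536 to 829, and endothelial genes (6) to 33.9 to 42.6, 47.1 to 56.5 and 72.7 to 78.6. General neuronal genes (8) did not follow the groups, at 876 to 964 in sham, 849 and 1260 in ICH replicates 1 and 2, and 768 to 817 in acupuncture. Erythroid genes (5) overlapped, at 187 to 380, 80.4 and 181, and 232 and 319. In bulk tissue fewer cells of a type and less RNA per cell cannot be told apart, and the part of cell composition in the m6A and RNA differences was not tested.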

How the data were processed

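Members and gene lists were chosen with earlier results of these data known. Genes were named by fixed rules: the 10 highest peaks per list, the 10 genes with most peaks, the 8 largest differences per direction and table, genes of the lists with a peak, and the 8 largest called RNA changes per direction; not all are printed, and Snord12, Snord22, Gm15927, the hairpins, the starts and the values of genes without a peak were picked after their values were seen. Peak lists hold the authors' log2 IP over input for a whole group, and the differential tables their log2 values for 2 groups and the difference; p-values and adjusted p-values in both are the authors' deposited ones, and only rows with a p under 0.05, or without one in the differential tables, are listed. Gene levels were deposited as FPKM of the input libraries, named so per the file headers. Per the submitters' processing notes, edgeR, StringTie, HOMER, HISAT2 and fastp were used (no versions or roles) with a human build (GRCh38), while the files hold mouse identifiers whose positions match GRCm38; which tool called the peaks is not stated there. Columns headed control and EA were taken as sham and acupuncture by elimination; 2 FPKM columns that match no sample were not used, and whether those samples entered the peak files is not stated. Starts were made 1-based, and spans include introns.

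From the files, peaks were overlapped on the same strand (at least 1 bp) and biotypes taken from RefSeq by Ensembl identifier or symbol. Genes averaging 1 FPKM or more were fitted as log2(FPKM + 1) (pseudocount 1) by group in limma 3.58.1 (R 4.3.3) with a trend and two-sided Benjamini-Hochberg adjustment over all genes, tested on simulated data; fold changes of low genes are understated on this scale. Tables used Python 3.11.15 and pandas 2.3.3. GGAC had been planned on peak regions and was searched only in RefSeq hairpins and promoter windows (250 bases before to 50 after the start). Without read counts the depth of each library is unknown; sums of FPKM ran from 179810 to 198472, with 3.83% to 4.24% in member genes. Alternatives were another pseudocount, filters, quantile normalization, no trend, a replicate block, 2 groups alone, left-out libraries, stricter peaks and a 50% overlap.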

Additional observations from a re-analysis of the deposited data

How the results depend on the processing

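Overlap of at least 50% of both peaks lowered the shared shares to 54.5% (sham in ICH), 53.0% (sham in acupuncture), 51.8% (ICH in sham), 54.0% (ICH in acupuncture), 53.4% (acupuncture in sham) and 57.2% (acupuncture in ICH). Over all peaks these shares ran from 46.7% (ICH in sham) to 57.5% (acupuncture in ICH). Called m6A members with a difference of at least 1 numbered 550, 411 and 378 in ICH against sham, acupuncture against ICH and acupuncture against sham; with a span of at most 1000 bp 774 and 605 remained in the first pair of comparisons, and by the authors' p alone the last pair had 1416 and 1245. All these are subsets or supersets by construction.

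For input RNA (limma), leaving out 1 library gave 9 to 268 called genes in ICH against sham, 1 to 281 in acupuncture against ICH and 20 to 131 in acupuncture against sham, the upper ends without ICH replicate 1. The replicate block gave 7, 2 and 19. Deviations from the group means correlated at -0.01 to 0.09 between same-numbered libraries. In a group of 2 libraries these deviations mirror each other, so the check cannot decide whether the numbers pair samples. A pseudocount of 0.1, no filter and 2 groups alone each gave 1 call in acupuncture against ICH. In acupuncture against sham a filter at 0.1 FPKM gave 73 and 2 groups alone 132. Quantile normalization gave 9 higher and 7 lower in ICH against sham and 25 and 28 in acupuncture against sham, beside 13 and 5, and 31 and 16, without it. Of 31 named gene comparisons 15 held under every setting other than leaving out a library, 12 under every left-out library, and 0 reversed. The causes were not tested.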
